A study of Mus musculus with 6 samples.

Results

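The 10 genes described here encode transporters and a transport receptor of the blood-brain barrier: Slc2a1, Mfsd2a, Slc7a5, Slc3a2, Slc16a1, Slco1a4, Slco1c1, Abcb1a, Abcg2 and Tfrc. They were taken by symbol from a table of 56748 mouse genes, each symbol matched 1 Ensembl identifier, and all 10 passed the filter that left 16162 genes for testing. The libraries came from brain of mice that carried implanted MCF10DCIS CD63-NanoLuC cells, human cells that form ductal carcinoma in situ, here with the vesicle protein CD63 joined to a luciferase. Of the 6 libraries, 3 were made from tissue taken 3 days after implantation and 3 from tissue taken at day 28. Both groups carried the same cells, so the comparison is between times, and brain of mice without implanted cells was not analysed here. The strain, sex and age of the mice, and whether each library came from its own animal, are not given in the sources used here. Without that, p-values measure at most the spread between these libraries, which may be technical.

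Endothelial cells of brain capillaries are sealed by tight junctions, so sugars, amino acids, lipids, hormones and iron reach the brain through carriers in their membranes. Other carriers pump drugs and toxins back to the blood. Brain endothelium expresses these genes at high levels, and several are also used elsewhere: Slc2a1 by astrocytes and choroid plexus, Slc16a1 by oligodendrocytes and astrocytes, and Tfrc by many dividing cells and by red cell precursors. The tissue was not sorted, so fewer cells of a type and less RNA per cell cannot be told apart.

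Reads assigned to genes, as recovered from the deposited values, totalled 11958137 to 16059196 per library. The fewest reads of any transporter gene in any library were 135, for Abcg2. The endothelial markers Pecam1, Cdh5 and Cldn5 were present in every library, and none of 20 endothelial genes was at 0 in all libraries. Their summed level was 7051 normalized counts in day 3 replicate 1, 4577 in replicate 2 and 4838 in replicate 3, and 4884 to 4916 over the day 28 libraries. The values are read counts divided by a size factor of the library. Day 3 replicate 1 thus stood apart in endothelial markers, and also in interferon-stimulated genes (mean log2 deviation 2.83). Day 3 replicates 1 and 2 were rich in cerebellar transcripts: Gabra6, a cerebellar granule cell receptor subunit, had 2102 and 2177 normalized counts in them, 0 in day 3 replicate 3 and at most 200 in a day 28 library. Alb, the liver-made albumin, reached 67649.7 normalized counts in day 3 replicate 2, against at most 1139 in any other library.

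The 250 bases before the start sites of 4 of the genes are shown because 3 of them (Slc2a1, Mfsd2a and Slc3a2) were lower in every day 28 library than in any day 3 library, while Slc16a1 was not. They are from RefSeq, build GRCm38.p6, at chr4:119108495-119108744 on the plus strand for Slc2a1, chr4:122961189-122961438 on the minus strand for Mfsd2a, chr19:8713898-8714147 on the minus strand for Slc3a2 and chr3:104638414-104638663 on the plus strand for Slc16a1. That build is older than the one named for the deposited table, and no value was placed by coordinate. Capitals mark ACGTG, the core of the hypoxia response element, and GGGCGG, the GC box, each searched on both strands.
Slc2a1: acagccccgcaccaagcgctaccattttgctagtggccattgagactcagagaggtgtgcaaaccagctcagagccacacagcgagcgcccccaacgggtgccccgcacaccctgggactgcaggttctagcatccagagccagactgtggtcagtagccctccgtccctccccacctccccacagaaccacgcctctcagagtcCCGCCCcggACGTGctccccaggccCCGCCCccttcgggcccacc
Mfsd2a: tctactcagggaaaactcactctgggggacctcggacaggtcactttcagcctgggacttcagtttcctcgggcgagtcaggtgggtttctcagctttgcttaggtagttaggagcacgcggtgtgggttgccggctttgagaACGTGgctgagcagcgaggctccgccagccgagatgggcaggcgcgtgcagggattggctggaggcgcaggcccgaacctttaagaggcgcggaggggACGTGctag
Slc3a2: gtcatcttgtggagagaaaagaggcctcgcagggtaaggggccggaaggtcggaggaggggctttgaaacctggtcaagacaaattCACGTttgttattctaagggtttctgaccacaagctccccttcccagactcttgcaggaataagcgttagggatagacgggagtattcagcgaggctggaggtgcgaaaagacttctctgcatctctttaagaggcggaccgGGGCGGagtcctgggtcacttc
Slc16a1: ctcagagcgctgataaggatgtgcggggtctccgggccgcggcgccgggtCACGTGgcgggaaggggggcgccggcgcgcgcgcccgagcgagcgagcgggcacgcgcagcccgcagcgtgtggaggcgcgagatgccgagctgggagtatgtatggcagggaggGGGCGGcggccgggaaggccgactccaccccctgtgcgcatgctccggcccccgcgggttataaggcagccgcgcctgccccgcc
The hypoxia element core stood 36 bases before the start in Slc2a1, 107 and 9 bases before it in Mfsd2a and 164 bases before it in Slc3a2. In Slc16a1 it lay within the E-box CACGTG, 200 bases before the start, which holds the core on each strand. Of the windows not shown, those of Abcb1a, Abcg2 (3 windows), Slco1a4 and Slco1c1 held no such core, and it was in 1 of 2 windows of Tfrc. Among all 32851 windows of that length, 16.6% held the hypoxia element core, 6.02% the E-box and 32.7% the GC box. TGTTCT, a short form of the glucocorticoid response element, was in no window of these genes, shown or not, and in 16.1% of all windows. A match of letters is a description of the window and shows no binding. Of the 10 genes, 9 matched an entry in the promoter table.

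Slc2a1, the main glucose transporter of the barrier, fell from day 3 to day 28, and the lipid carrier Mfsd2a and the amino acid carrier pair Slc7a5 and Slc3a2 were also lower in every day 28 library, without passing the test. The monocarboxylate carrier Slc16a1, the organic anion carriers Slco1a4 and Slco1c1, the efflux pumps Abcb1a and Abcg2 and the transferrin receptor gene Tfrc had overlapping groups. Of the 10 genes, 1 passed at a limma adjusted p of 0.05, against 0.192% of all tested genes in either direction, 0.124% lower and 0.0681% higher at day 28. An unadjusted p under 0.05 with a lower value at day 28 was found for 5 of the 10, against 6.39% of all tested genes. The day 28 libraries lay wholly below the day 3 libraries for 4 of the 10, against 9.21% of all tested genes. The log2 difference (day 28 minus day 3) was negative for 8 of the 10, against 51.4% of all tested genes, and its median was -0.27, against -0.01. Groups that do not overlap stay so when a library is left out, so these 4 genes had to remain in the count. Leaving out any single library gave counts of 4 to 6, for example 4 without day 3 replicate 1 (18.9% of all tested genes) and 6 without day 3 replicate 2 (12.4%). Without both cerebellum-rich libraries, which leaves 1 library at day 3, the count was 7, against 30.8% of all tested genes.

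**Figure D1:**
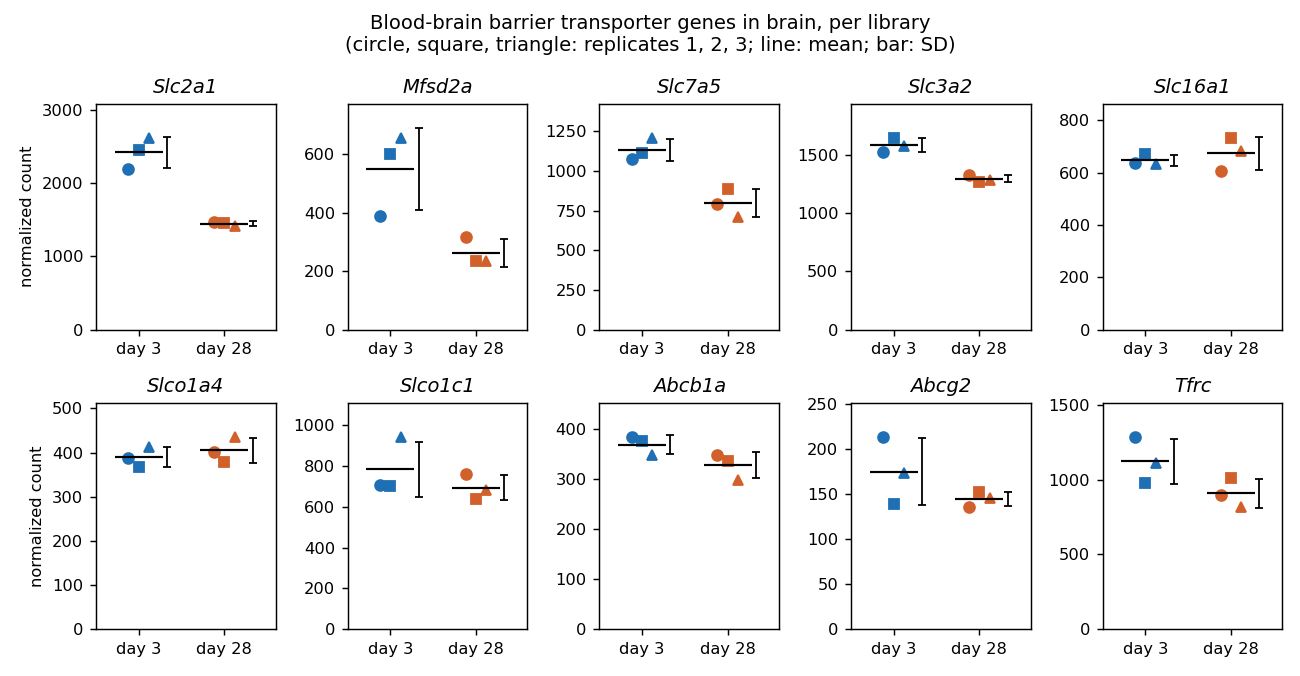
Normalized counts (vertical axes from 0, one scale per gene) of the 10 transporter genes in the 3 day 3 libraries (blue) and the 3 day 28 libraries (orange), with the mean as a line and the SD as a bar. Slc2a1 sits between 2202 and 2620 at day 3 and between 1410 and 1478 at day 28, while the points of Slc16a1 and Slco1a4 overlap.

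Slc2a1 (ENSMUSG00000028645) encodes GLUT1, which carries glucose down its gradient from blood into brain. The day 3 libraries held 2202, 2460.5 and 2620.2 normalized counts and the day 28 libraries 1478, 1453 and 1410.3. Every day 3 library was above every day 28 library, and the day 28 libraries lay close together. The means were 2428 ± 211 and 1447 ± 34.4 (SD, n = 3 per group), so that day 28 stood at 59.6% of day 3. The Slc2a1 log2 difference was -0.74 (SE 0.09, limma adjusted p = 0.0345). The size of this difference varied little when single libraries were left out, from -0.69 to -0.81, but the call did not hold in 4 of these fits: adjusted p was 0.133 when day 3 replicate 2 was dropped, and 0.241, 0.19 and 0.158 when day 28 replicate 1, 2 or 3 was. It was also lost with voom on the recovered reads (adjusted p = 0.0534). Without both cerebellum-rich libraries the difference was -0.86 (adjusted p = 0.116).

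Values of 4 other genes of the family, chosen after their values were seen, were as follows. Slc2a3, the neuronal glucose transporter GLUT3, had 1886 to 1970.3 normalized counts at day 3 and 1814 to 1997 at day 28, and these groups overlapped. Slc2a4, the insulin-responsive carrier GLUT4, was low, with 28.8 to 43.0 at day 3 and 11.6 to 14.2 at day 28, and Slc2a6 had 293 to 304 and 233 to 254. Both were lower in every day 28 library, while Slc2a13, a carrier of myo-inositol, was higher in every one (1459 to 1941 and 2011 to 2252). None of these 4 passed (adjusted p = 0.954, 0.239, 0.375 and 0.218). Of 14 tested genes of hypoxia and glucose use, 0 passed, 11 had a negative difference and the median was -0.16. By smallest p, Ndrg1, a hypoxia-induced gene, stood at 1869 ± 122 and 1408 ± 114 normalized counts (log2 -0.41, adjusted p = 0.134), and Bnip3, a mitochondrial protein induced by hypoxia, at 1285 ± 159 and 1091 ± 60.8 (log2 -0.23, adjusted p = 0.42).

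Mfsd2a (ENSMUSG00000028655) encodes the carrier that brings lysophosphatidylcholine with docosahexaenoic acid into the brain and holds down vesicle traffic across endothelium. It had 390.2, 600.5 and 656 normalized counts at day 3 and 318, 236 and 236 at day 28. The lowest day 3 library, replicate 1, was nearest to the highest day 28 library, replicate 1, but the groups did not overlap. The means were 549 ± 140 and 263 ± 47.7, or 48.0% at day 28, the lowest share of the 10 genes. The Mfsd2a log2 difference of -1.04 (SE 0.21) did not pass (adjusted p = 0.102). Dropping day 3 replicate 1 gave -1.26, which passed (adjusted p = 0.0462). Liver also expresses Mfsd2a, and the part of liver transcripts in its difference was not tested. The difference was -0.95 without day 3 replicate 2, the library with those transcripts, and -1.33 without both cerebellum-rich libraries (adjusted p = 0.216).

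Slc7a5 (ENSMUSG00000040010) and Slc3a2 (ENSMUSG00000010095) encode the light chain LAT1 and the heavy chain CD98hc of the carrier for leucine, other large neutral amino acids and L-DOPA. Slc7a5 had 1076, 1115 and 1207 normalized counts at day 3 and 795, 889 and 711 at day 28 (log2 -0.51, SE 0.11, adjusted p = 0.116). Slc3a2 had 1523, 1645 and 1581 at day 3 and 1327, 1268 and 1287 at day 28 (log2 -0.29, SE 0.08, adjusted p = 0.186). In both genes every day 28 library was below every day 3 library, and neither passed. Within a library, the count of Slc3a2 was 1.31 to 1.48 times that of Slc7a5 at day 3 and 1.43 to 1.81 times at day 28, and these ranges overlapped.

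Among related amino acid carriers, Slc7a8 and Slc7a1 were chosen after their values were seen. Slc7a8, which encodes the LAT2 light chain that also pairs with CD98hc, stood at 733 ± 15.6 and 931 ± 54.3 normalized counts (log2 0.34, adjusted p = 0.172). Slc7a11, the light chain of the cystine and glutamate exchanger, stood at 348 ± 85.1 and 546 ± 67.9 (log2 0.67, adjusted p = 0.19). Slc7a1, a carrier of cationic amino acids at the barrier, stood at 590.5 ± 24.0 and 764 ± 104 (log2 0.36, adjusted p = 0.251). Each of these 3 was higher in every day 28 library than in any day 3 library, and none passed. The groups did not overlap, in either direction, for 18.9% of all tested genes. Of 14 tested genes of the ATF4 amino acid stress response, which can raise Slc7a5 and Slc3a2, 0 passed, 10 had a negative difference and the median was -0.20. Mthfd2, a mitochondrial folate enzyme and the other gene of that list by smallest p, stood at 118 ± 19.8 and 68.4 ± 8.20 (log2 -0.77, adjusted p = 0.201).

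Slc16a1 (ENSMUSG00000032902) encodes MCT1, which carries lactate and ketone bodies. It had 638, 672 and 632 normalized counts at day 3 and 605, 732 and 683 at day 28, and the groups overlapped. Its log2 difference was 0.05, with a 95% interval from -0.19 to 0.30 (adjusted p = 0.873). The interval for Slc2a1 ran from -0.95 to -0.53. Within a library the count of Slc2a1 was 3.45 to 4.15 times that of Slc16a1 at day 3 and 1.98 to 2.44 times at day 28. Emb, which encodes the chaperone embigin of monocarboxylate carriers, had 419.5, 445 and 347 normalized counts, then 238, 271 and 273 (log2 -0.62, adjusted p = 0.126). Slc16a7, the MCT2 carrier found mainly in neurons, stood at 491 ± 19.5 and 676 ± 61.9 (log2 0.46, adjusted p = 0.14). Neither passed.

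Slco1a4 (ENSMUSG00000030237) and Slco1c1 (ENSMUSG00000030235) encode organic anion carriers, and Slco1c1 takes thyroxine into the brain. Slco1a4 had 387, 368 and 413 normalized counts at day 3 and 401, 379 and 434 at day 28. Its log2 difference was 0.05 (95% interval -0.21 to 0.32, adjusted p = 0.879). Slco1c1 had 708, 704 and 941 at day 3 and 761, 639 and 681 at day 28. Its highest value was in day 3 replicate 3, and the Slco1c1 log2 difference was -0.17 (95% interval -0.48 to 0.15, adjusted p = 0.646). It was -0.029 without that library, -0.11 without day 28 replicate 2 and -0.44 without both cerebellum-rich libraries. The close relatives Slco1a5 and Slco1a6 had at most 1 read in any library.

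Of other genes of these routes, Thrb, a thyroid hormone receptor gene, stood at 560.5 ± 134 and 747 ± 95.6 (log2 0.43, adjusted p = 0.328). Slco2b1, another organic anion carrier, stood at 282 ± 31.2 and 214 ± 16.2 (log2 -0.40, adjusted p = 0.294), and Slco3a1, a carrier of prostaglandins, at 737 ± 52.8 and 548 ± 7.34 (log2 -0.42, adjusted p = 0.136). None of these 3 passed.

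Abcb1a (ENSMUSG00000040584) and Abcg2 (ENSMUSG00000029802) encode P-glycoprotein and the breast cancer resistance protein, the main pumps that return drugs to blood. Abcb1a had 384, 377 and 348 normalized counts at day 3 and 349, 337 and 299.5 at day 28. The groups overlapped through day 3 replicate 3 and day 28 replicate 1, and the Abcb1a log2 difference was -0.17 (95% interval -0.45 to 0.11, adjusted p = 0.591). It was -0.11 without day 28 replicate 3 and -0.086 without both cerebellum-rich libraries. Its near copy Abcb1b, with which reads may be shared, was listed at 21.6 to 45.8 at day 3 and 28.4 to 42.0 at day 28. Abcg2 had 212, 139 and 173 at day 3 and 136, 152 and 145 at day 28, with its highest value in day 3 replicate 1. The Abcg2 log2 difference was -0.26, with a 95% interval from -0.70 to 0.19 (adjusted p = 0.615), and it was -0.10 without that library and -0.41 without day 3 replicate 2.

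Tfrc (ENSMUSG00000022797) encodes the transferrin receptor, which takes up iron bound to transferrin. It had 1282, 979 and 1109 normalized counts at day 3 and 898, 1008 and 817 at day 28. The groups overlapped through day 3 replicate 2 and day 28 replicate 2, and the difference was -0.30 (95% interval -0.59 to -0.01, adjusted p = 0.351). Red cell markers had a summed level of 2253 to 5289 at day 3 and 1622 to 2147 at day 28, with the lowest day 3 value in replicate 1, where Tfrc was highest. Their part in the difference of Tfrc was not tested. Of 14 iron handling genes 0 passed, and Fth1, the ferritin heavy chain, stood at 28097 ± 311 and 22216 ± 1723 (log2 -0.34, adjusted p = 0.172). Cp, the copper oxidase ceruloplasmin, stood at 623 ± 506 and 195 ± 30.5 (log2 -1.36, adjusted p = 0.266) and was highest in the library with liver transcripts.

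Per kilobase of merged exons, the genes kept most of their order between the times. At day 3 the order of mean level was Slc2a1 (692 normalized counts per kilobase), Slc3a2 (449), Slc7a5 (305), Mfsd2a (244), Tfrc (182), Slco1c1 (151), Slc16a1 (146), Abcb1a (67.5), Slco1a4 (60.7) and Abcg2 (21.4). At day 28 it was Slc2a1 (413), Slc3a2 (367), Slc7a5 (215), Slc16a1 (152), Tfrc (147), Slco1c1 (134), Mfsd2a (117), Slco1a4 (63.1), Abcb1a (59.9) and Abcg2 (17.7). Mfsd2a thus moved from the fourth to the seventh place. At day 3 its libraries spanned 173 to 292 per kilobase and overlapped those of Slc7a5 (290 to 326) and Tfrc (158 to 207). The ranges of Tfrc and Slco1c1, Slco1c1 and Slc16a1, and Abcb1a and Slco1a4 also overlapped at day 3. At day 28 the libraries of Slc16a1, Tfrc, Slco1c1 and Mfsd2a formed an overlapping run from 105 to 165, as did those of Slco1a4 and Abcb1a (54.7 to 67.7). Slc2a1, Slc3a2 and Abcg2 overlapped with no neighbour at either time.

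Endothelial markers were highest in day 3 replicate 1. Of the 20 genes 0 passed, 13 had a negative difference, and the median was -0.18, which was 0.06 without day 3 replicate 1. Pecam1, an endothelial adhesion protein, had 371, 195 and 168 normalized counts at day 3 and 173 to 204 at day 28 (log2 -0.28, adjusted p = 0.71, and 0.06 without day 3 replicate 1). Cdh5, the endothelial cadherin, had 324, 179 and 140 at day 3 and 194 to 199 at day 28 (log2 -0.04, adjusted p = 0.973, and 0.31 without that library). Cldn5, the tight junction protein claudin-5, stood at 355 ± 177 and 397 ± 65.5 (log2 0.27, adjusted p = 0.762). Sox18, an endothelial transcription factor, had the largest difference of the list (136 ± 45.5 and 24.2 ± 9.97, log2 -2.45, adjusted p = 0.0548), and Rasip1, a regulator of vessel lumens, stood at 156 ± 34.3 and 84.6 ± 9.28 (log2 -0.86, adjusted p = 0.16).

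Relative to endothelial markers, every log2 difference moved upward by the same amount, and the intervals of the 10 genes were wider. For these genes the SE was 0.33 to 0.35, almost the same for all. Alb, with very unlike libraries, had an SE of 0.33 here and 2.29 on the deposited scaling. Intervals, adjusted p and counts of genes past the threshold on this scale therefore do not measure each gene's own spread. On log2 values minus the mean of the 20 endothelial markers in the same library, the Slc2a1 difference was -0.42 (SE 0.34, 95% interval -1.08 to 0.24, adjusted p = 0.648) and that of Mfsd2a -0.72 (SE 0.33, 95% interval -1.37 to -0.06, adjusted p = 0.419). On this scale 0 of the 10 genes passed, against 1.14% of all tested genes, and their median was 0.05, against 0.31 for all tested genes. Without day 3 replicate 1, the library rich in endothelial markers, the Slc2a1 difference relative to endothelial markers was -0.74 and passed (adjusted p = 0.0475), and that of Mfsd2a was -1.20 (adjusted p = 0.0571). No other alternative run on this scale gave a pass for Slc2a1, and these alternatives were not planned in advance. Day 3 replicate 1 also had the lowest Slc2a1 and Mfsd2a values of the day 3 libraries.

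**Figure D2:**
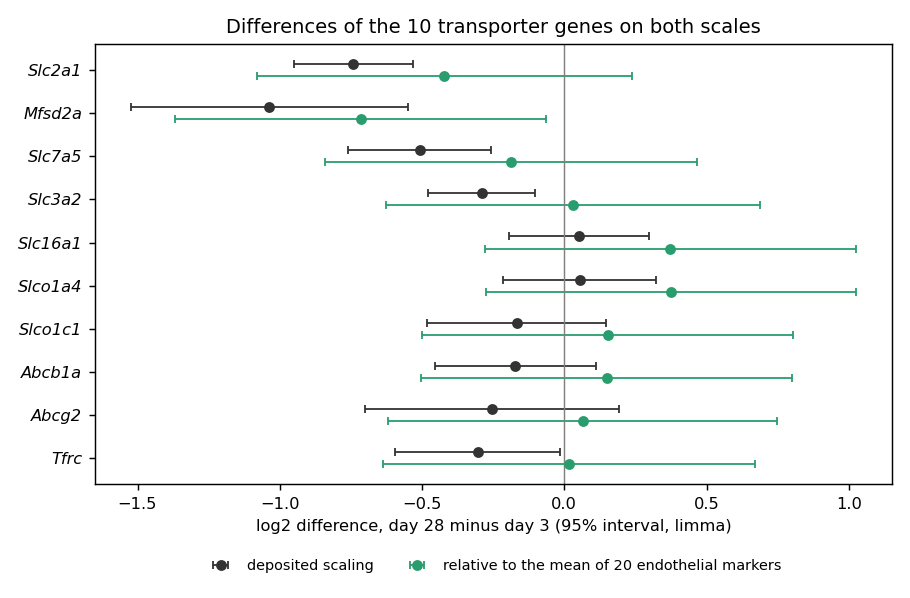
Log2 differences (horizontal axis, day 28 minus day 3) of the 10 genes with 95% intervals from limma, on the deposited scaling (black) and relative to the mean of 20 endothelial markers (green). On the deposited scaling the intervals of Slc2a1, Mfsd2a, Slc7a5, Slc3a2 and Tfrc lie below 0, while relative to endothelial markers the interval of Mfsd2a alone does. The green intervals rest on almost the same SE for all 10 genes.

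The other lists of barrier genes differed in direction, and some had medians below 0 as the 10 genes did. Of 25 other transporters and transport receptors of brain endothelium, 0 passed, 12 had a negative and 13 a positive difference, and the median was 0.04. The groups did not overlap for 3 lower and 5 higher genes of the 25, against 18.9% of all tested genes in either direction. The higher ones included Slc6a6, the taurine carrier, which stood at 1849 ± 71.6 and 2774 ± 228 normalized counts (log2 0.58, adjusted p = 0.0548), and Slc39a10, a zinc carrier, at 2224 ± 160 and 2724 ± 135 (log2 0.29, adjusted p = 0.208). Of 15 tight junction and caveolar genes 0 passed and 9 had a negative difference, with a median of -0.24. Lsr, a protein of tricellular junctions, stood at 145 ± 59.1 and 60.0 ± 8.77 (log2 -1.19, adjusted p = 0.148), and F11r, a junctional adhesion molecule, at 170 ± 43.9 and 108 ± 22.3 (log2 -0.63, adjusted p = 0.332). Of 16 Wnt pathway and transcription factor genes of barrier formation 0 passed, and the median was 0.04. Among them Tnfrsf19 stood at 678 ± 73.9 and 893 ± 92.3 (log2 0.40, adjusted p = 0.209) and the forkhead factor gene Foxq1 at 70.6 ± 4.70 and 48.9 ± 16.3 (log2 -0.57, adjusted p = 0.458). Of the 26 tested relatives of the 10 genes 0 passed, 18 had a negative difference and the median was -0.14. The groups did not overlap for 8 lower and 4 higher relatives. Among all tested genes these shares were 18.9% in either direction and 9.21% lower. Of 15 tested partner subunits, ligands and linked enzymes 0 passed, 10 had a negative difference and the median was -0.14. At an unadjusted limma p under 0.05, against 13.4% of all tested genes, there were 5 of the 25 other transporters, 3 of the 15 junction genes, 1 of the 16 Wnt pathway genes, 9 of the 26 relatives, 3 of the 15 partners and 4 of the 20 endothelial markers. The same count was 1 of 14 for hypoxia, 5 of 14 for amino acid stress, 2 of 14 for iron, 12 of 18 for glucocorticoid-responsive genes and 4 of 12 for interferon-stimulated genes. Among markers of other cells and tissues it was 8 of 12 for astrocytes, 8 of 10 for oligodendrocytes, 5 of 6 for red cells, 5 of 12 for cerebellum, 0 of 11 for choroid plexus, 0 of 13 for pericytes and smooth muscle and 0 of 10 for liver.

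Markers of other cells that express some of these carriers were read beside them. Of 12 astrocyte markers, Aldoc, a glycolytic enzyme, fell from 15897 ± 1006 to 9924 ± 592 normalized counts (log2 -0.68, SE 0.09, adjusted p = 0.0345). In that list 9 had a negative difference and the median was -0.33. The groups did not overlap for 4 lower and 1 higher of these markers, against 18.9% of all tested genes in either direction. The summed level of the 12 was 75609 to 79288 at day 3 and 72334 to 76675 at day 28. Gjb6, a gap junction protein of astrocytes, stood at 1083 ± 176 and 626 ± 68.5 (log2 -0.78, adjusted p = 0.0786). Of 10 oligodendrocyte and myelin markers 0 passed, 9 had a negative difference and 8 were lower in every day 28 library, against 9.21% of all tested genes. The median of that list was -0.49, with summed levels of 115333 to 137190 and 78294 to 97127. Choroid plexus markers had summed levels of 7153 to 15543 and 8282 to 12153, and those of pericytes and smooth muscle 3094 to 5043 and 3541 to 3903, with 0 genes past the threshold in either list. No marker of these lists was at 0 in all libraries. The part of these cells in the fall of Slc2a1 was not tested.

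**Figure D3:**
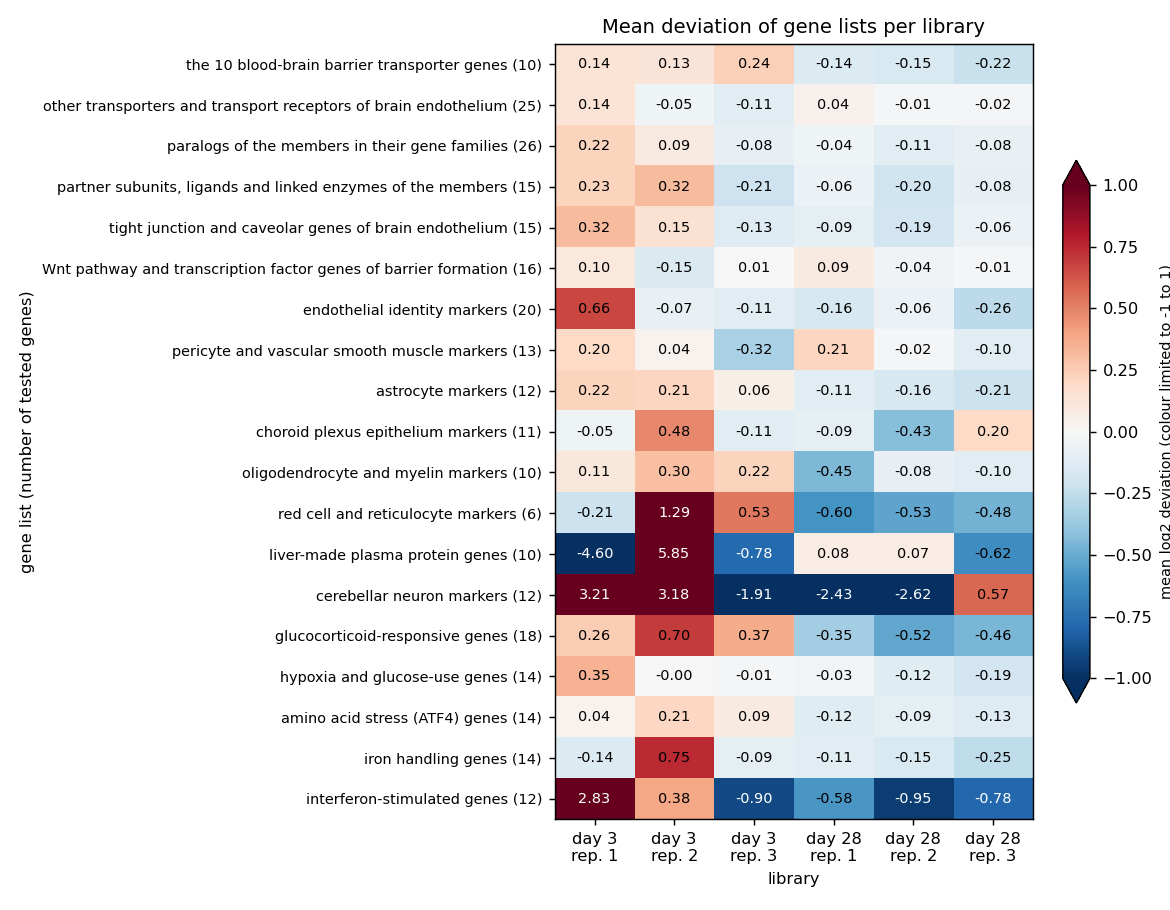
Mean log2 deviation of each gene list from its genes' means over the 6 libraries (columns are libraries, rows are lists with the number of tested genes, cells hold the values and colour is limited to -1 to 1). The 10 transporter genes lie between 0.13 and 0.24 in the day 3 libraries and between -0.22 and -0.14 at day 28, and endothelial markers reach 0.66 in day 3 replicate 1. Astrocyte, oligodendrocyte, glucocorticoid-responsive and amino acid stress genes also lie above 0 in every day 3 library and below 0 in every day 28 library.

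The genes whose values ran most like those of Slc2a1 over the 6 libraries were Fkbp5, a co-chaperone of steroid receptors (Pearson's r = 0.997), Spns2, a sphingosine-1-phosphate exporter (r = 0.996), and Pnpla2, a triglyceride lipase (r = 0.992). These are the top 3 of all tested genes by r, as a description over 6 libraries in 2 groups that differ in Slc2a1. Fkbp5 fell from 1107 ± 225 to 436 ± 22.7 normalized counts (log2 -1.32, adjusted p = 0.0345) and Pnpla2 from 453 ± 22.0 to 258 ± 13.0 (log2 -0.81, adjusted p = 0.0479). Spns2 had 880.2, 991 and 1060.0 normalized counts, then 613, 578 and 604 (log2 -0.70, adjusted p = 0.0504). Of the other transporter genes, Slc3a2 had an r of 0.978 with Slc2a1, Mfsd2a of 0.952 and Slc7a5 of 0.948, while Slc16a1 and Slco1a4 had -0.31 and -0.32. Fkbp5 is 1 of 18 glucocorticoid-responsive genes, a list chosen with earlier results of these data known. Of the 18, 6 passed as lower at day 28 (Plin4, Fkbp5, Mt1, Hif3a, Tsc22d3 and Zbtb16), against 0.124% of all tested genes. The difference was negative for 15 and positive for 3. In every day 28 library 9 were lower and 2 were higher, against 18.9% of all tested genes in either direction. The mean log2 deviation of that list lay between 0.26 and 0.70 in the day 3 libraries and between -0.52 and -0.35 in the others. Whether glucocorticoid signalling had a part in the fall of Slc2a1 was not tested.

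**Figure D4:**
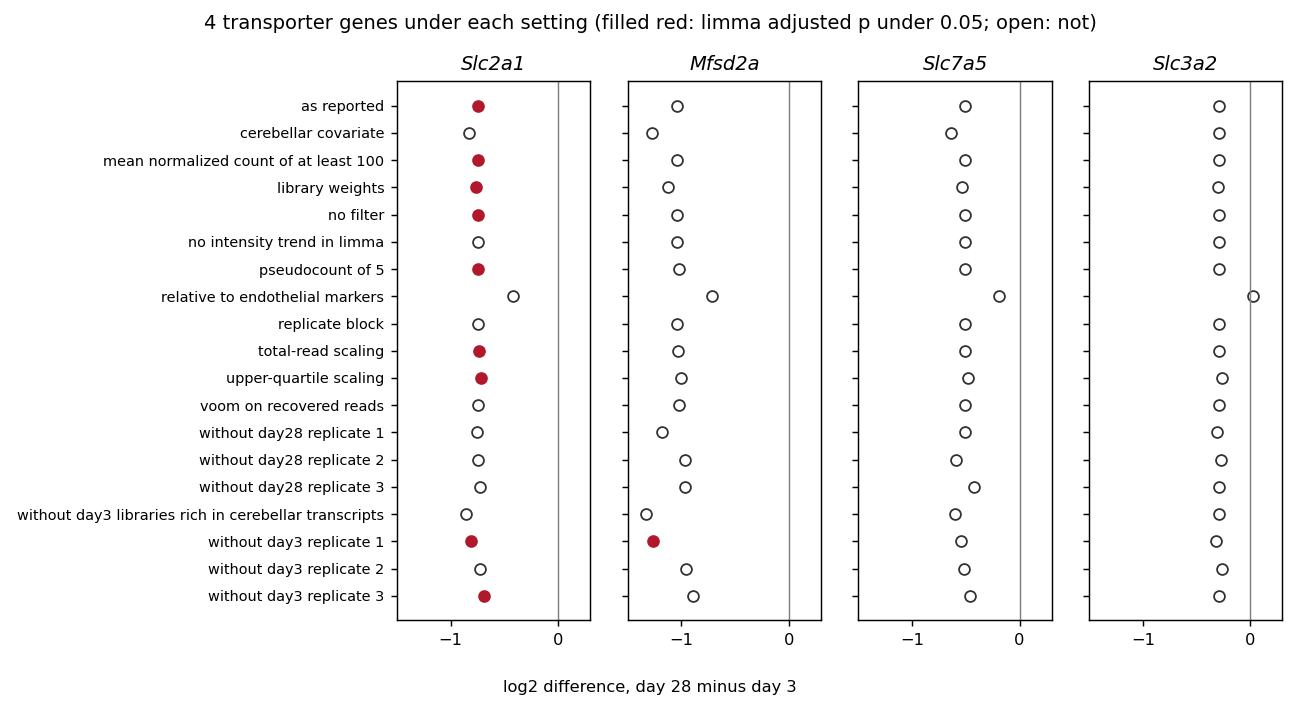
Log2 differences (horizontal axes, day 28 minus day 3) of Slc2a1, Mfsd2a, Slc7a5 and Slc3a2 under each setting (rows), filled red where the limma adjusted p was under 0.05. Slc2a1 runs from -0.86 to -0.42, Mfsd2a passes only without day 3 replicate 1 (-1.26), and Slc3a2 reaches 0.03 relative to endothelial markers.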

How the data were processed

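Stranded poly(A) libraries were made from brain RNA, per the labels' protocols. The authors deposited log2 values of normalized counts plus 1, mapped to GRCm39 per the submitters' processing notes. The aligner, counter and annotation are not given in the sources used here. Dividing by each library's step gave whole reads for 100% of values (tolerance 0.001), with size factors of 0.822 to 1.12. Symbols came from an older mouse gene table that named 15978 of 16162 tested genes. Genes whose normalized counts averaged 10 or more were tested with limma 3.58.1 in R 4.3.3 (intensity trend, 4 residual degrees of freedom, two-sided) and Benjamini-Hochberg adjustment at 0.05 over all of them. The members and lists were chosen with earlier results of these data known. Named were the 10 genes, in each other list any gene past the threshold and up to 2 of smallest p, the markers Pecam1, Cdh5, Cldn5, Alb, Gabra6, Ttr and Hbb-bs, and the 3 genes most like Slc2a1, and not all of them are printed. Slc2a3, Slc2a4, Slc2a6, Slc2a13, Slco2b1, Slc7a8, Slc7a1, Abcb1b, Slco1a5 and Slco1a6 were chosen after their values were seen. Alternatives were a pseudocount of 5, other filters and scalings, no trend, library weights, voom, a replicate block, a cerebellar covariate, endothelial-relative values and each library left out. Leaving out both cerebellum-rich libraries was chosen after seeing the data, and the alternatives run on endothelial-relative values were not planned in advance. The result for 1 of the genes considered is not reported here.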

Additional observations from a re-analysis of the deposited data

How the results depend on the processing

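Slc2a1, Mfsd2a and Slc7a5 had negative differences under all 18 alternatives run, and Slc3a2 under 17. Much of this was fixed in advance. The other filters, the fit without trend and the replicate block left each difference as it was. Leaving out libraries, library weights or another pseudocount could not turn the sign, because the groups of these genes did not overlap. The sign was open only with other scalings, voom, the cerebellar covariate and endothelial-relative values. Slc2a1 passed in 8 of the 18. The count of genes past the threshold, 31, was 69 with library weights, 68 with no filter, 3 without the intensity trend, 2 with the cerebellar covariate, 185 relative to endothelial markers, and 0 with voom and without both cerebellum-rich libraries. With single libraries left out it lay between 1 (day 28 replicate 1 dropped) and 623 (day 3 replicate 3 dropped). The count among the 10 genes, 1, was 0 with the cerebellar covariate, without the trend, relative to endothelial markers, with voom and without both cerebellum-rich libraries, and 0 to 2 with single libraries left out. Their median of -0.27 was 0.048 relative to endothelial markers and -0.33 to -0.22 with single libraries left out. The Slc2a1 difference relative to endothelial markers, -0.42, ran from -0.74 to -0.23 in the same way. The causes were not tested.

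Same-numbered libraries did not deviate together (correlations 0.03, 0.13 and -0.06), so the numbers were not taken as pairs. With the replicate block, 0 genes and 0 of the 10 passed, and the Slc2a1 log2 difference had an adjusted p of 0.0842.

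Relative to endothelial markers, differences of the opposite sign were 0.030 for Slc3a2, 0.15 for Slco1c1, 0.15 for Abcb1a, 0.065 for Abcg2, 0.017 for Tfrc, 0.091 for Bnip3, 0.28 for Cdh5 and 0.041 for Pecam1. These signs depend on the subtracted mean of the 20 markers, which includes Sox18 (log2 -2.45). The median of the markers was -0.18, with 13 negative and 7 positive. Slc16a1 was -0.0095 without day 28 replicate 2, Slco1a4 -0.030 without both cerebellum-rich libraries, and Cldn5 -0.10 without day 3 replicate 2. Cdh5 was 0.31 with the cerebellar covariate, 0.078 with library weights, 0.48 without both cerebellum-rich libraries and 0.31 without day 3 replicate 1. Pecam1 was 0.018 with the covariate and 0.17 without those libraries. With single libraries left out, the Cdh5 log2 difference ranged from -0.30 to 0.31, the Pecam1 log2 difference from -0.51 to 0.064 and that of Cldn5 from -0.10 to 0.64. Library weights on endothelial-relative values were not run.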

Other observations

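Vwf, the endothelial von Willebrand factor gene, chosen after its values were seen, had 515, 208 and 191 normalized counts at day 3 and 133, 71.4 and 138 at day 28. Its groups did not overlap (log2 -1.31, SE 0.40, limma adjusted p = 0.209), and its highest value was in day 3 replicate 1, the library rich in endothelial markers. The Vwf log2 difference was -0.86 without that library and -0.80 without both cerebellum-rich libraries. Among pericyte markers, Anpep stood at 64.3 ± 31.6 and 31.5 ± 19.8 (log2 -1.10, adjusted p = 0.433) and Kcnj8, a potassium channel subunit, at 22.7 ± 16.9 and 36.3 ± 12.7 (log2 0.99, adjusted p = 0.58). Both overlapped between the times. The Kcnj8 log2 difference was 0.18 when day 3 replicate 3 was dropped, 1.55 when day 3 replicate 1 was, and 2.62 without both cerebellum-rich libraries. That last value rests at day 3 on replicate 3 alone, which held 4 reads of Kcnj8. The Anpep log2 difference was -0.57 without day 28 replicate 3 and -0.42 without both cerebellum-rich libraries.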
